A study of Mus musculus with 6 samples.

Results

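The genes described here encode nuclear subunits of the mitochondrial respiratory chain and of ATP synthase, together with a few genes that share their names. They were taken by gene symbol from the annotation of a mouse expression array: symbols that begin with Nduf, Uqcr, Cox4 to Cox8 or Atp5, and Sdha, Sdhb, Sdhc and Sdhd. The rule found 90 genes, carried by 134 probes, among 32053 named genes and 55681 probes on the array. By their known products, 36 genes encode subunits of complex I, 4 of complex II, 8 of complex III, 18 of complex IV and 15 of complex V. The name rule also takes in 4 complex I assembly factors (Ndufaf1 to Ndufaf4), Ndufa4 and its paralogue Ndufa4l2, which belong with complex IV despite their names, and 3 genes whose products are not subunits (Atp5s, Atp5sl and Cox4nb). These last groups were kept apart from the 5 complexes.

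RNA came from 1676 cells, a line of mouse pre-B cells that lacks the adaptors SLP-65 and LAT (genotype SLP-65-/- LAT-/-) and grows with IL-7 in the medium. The cells had been transduced by retrovirus and selected with puromycin for 1 of 3 vectors: an empty control vector, a vector for miR-26a (labelled hsa-miR-26a-2), or a sponge that binds the miR-26 family. Each group had 2 arrays, 1 from each of 2 experiments with separately made transduced cells, so 6 one-colour arrays were read, all on 1 slide. The study asked what added or sequestered miR-26 does to the transcriptome of these cells. The genotype, the cell line and IL-7 were common to the 3 groups, so the values describe 1 selected line that cannot signal through SLP-65 or LAT, and no other pre-B cell.

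Complexes I and II pass electrons from NADH and succinate to coenzyme Q, complex III passes them on to cytochrome c, and complex IV hands them to oxygen. Complexes I, III and IV pump protons out of the mitochondrial matrix, and complex V uses their return to make ATP. Most subunits are encoded in the nucleus and imported, a small core is encoded by mitochondrial DNA, and some complex IV subunits exist as a broadly expressed isoform and one typical of muscle, heart or testis.

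The miR-26 family members whose activity the vectors alter share their seed, the bases that pair with a target. The mature mouse sequences (RefSeq, GRCm38.p6) are shown with the seed, bases 2 to 8, in capitals.
mmu-miR-26a-5p: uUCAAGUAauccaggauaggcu
mmu-miR-26b-5p: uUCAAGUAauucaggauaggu

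Signal was the background-subtracted fluorescence of each spot. After quantile normalization it is given as log2, so a difference of 1 is a doubling. The share of the 59305 spots that stood well above background ran from 48.6% to 50.25% per array, and saturation was found in 0 spots. Across all probes tested, the Pearson correlation between the arrays of a group was 0.997 for control, 0.997 for miR-26a and 0.996 for sponge, over probes that are not independent of each other. The median absolute difference between those arrays over the respiratory chain probes was 0.09 for control, 0.08 for miR-26a and 0.13 for sponge. The number of arrays, 2 in each group, limits the precision of every comparison.

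By signal, the markers fit the label of pre-B cells. The probes for Cd79a, Cd79b, Vpreb1, Igll1, Il7r, Pax5 and Ebf1 were well above background on the 6 arrays. The T cell gene Cd8a and the plasma cell gene Igj were at background on the 6 arrays, and the myeloid genes Lyz2 and Mpo passed it on at most 1 array. Probes for Itgam, Csf1r, Cd3e, Cd4, Lck, Prdm1 and Sdc1 were above background on the 6 arrays, so these lineage genes were not silent, and the erythroid gene Klf1 gave a weak signal there. Of the 7 pre-B genes named above, all probes but that of Il7r (0.19) were below 0 with miR-26a, down to -0.27 for Pax5, and none passed against control. A Pax5 probe was lower in miR-26a than in sponge (-0.36, adjusted p 0.028). This call was kept in 7 of 15 settings and in 1 of the 6 fits with an array left out. Without the experiment block it ended (adjusted p 0.0703). Of the tested T cell and plasma cell probes none passed. Blnk, the gene of SLP-65, and Lat also gave signal on the 6 arrays. Where their probes lie relative to the deletions is not known, so these signals do not test the genotype. Blnk fell by 0.49 with miR-26a (adjusted p 0.0275), a call kept in 9 of 15 settings and lost without the experiment block (0.105). That call also ended without control 1 (log2 change -0.57), control 2 (-0.42) or miR-26a 1 (-0.45). Against sponge Blnk was lower by 0.61 (adjusted p 0.0123), a call kept without the experiment block (0.0448) and in 11 of 15 settings. The call against sponge ended without sponge 1 (log2 change -0.50) or sponge 2 (-0.72).

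Nearly the whole chain was expressed. Of the 134 probes, 127 passed the filter (a signal well over background for 1 array or more, and above 50 on at least 4 of 6 arrays), and they cover 86 of the 90 genes. All 127 were well above background on the 6 arrays, so none was tested because a single group was high. The 7 probes left out were 2 for Ndufb5, 1 for Atp5j, and the only probes for Cox7b2, Cox8b, Cox8c and Ndufa4l2, which are isoforms typical of testis, muscle or other settings. Those 4 isoforms were not well above background on any array. Ndufb5 and Atp5j were tested through their other probes.

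Few of the genes changed with miR-26a. A probe is said to have risen, fallen or changed when its adjusted p in limma, fitted over 20168 tested probes with experiment as a block, was under 0.05. Between miR-26a and control 4 of 127 probes (3.15%) passed, where 9.64% of tested probes did. Of these 4, 2 fell, beside 5.14% of tested probes, and 2 rose, beside 4.5%. At an unadjusted p under 0.05, which 27.3% of tested probes had, 4 probes were lower (13% of tested probes) and 15 higher (14.3%). In bulk RNA, fewer cells of a type and less RNA per cell cannot be told apart.

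No respiratory chain probe changed between sponge and control. In limma 0 of 127 passed in either direction, beside 0.00992% of tested probes in all, 0% lower and 0.00992% higher. At an unadjusted p under 0.05, which 16.1% of tested probes had, 4 were lower (8.72% of tested probes) and 6 higher (7.38%).

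The direct comparison of miR-26a with sponge shares its arrays with the other 2 comparisons, so it is not a separate observation. In it 4 of 127 probes (3.15%) passed, where 16.8% of tested probes did. They were 2 lower, beside 8.49%, and 2 higher, beside 8.28%. At an unadjusted p under 0.05, which 34.6% of tested probes had, 5 were lower (15.9% of tested probes) and 17 higher (18.7%).

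The small shifts of the whole list leaned upwards with miR-26a and with sponge, and the difference between them was not tested. With miR-26a the median log2 change was 0.06, beside 0.01 over all tested probes, and it was 0.05 in experiment 1 and 0.07 in experiment 2. Of the 127 probes 88 were above 0, of which 70 were above 0 in both experiments, and 39 were below 0. Among the 20168 tested probes 10622 were above 0, of which 7548 in both experiments. With sponge 81 of the 127 were above 0 (57 in both experiments), beside 10363 of all tested probes (6802 in both). The median was 0.03 for sponge minus control, beside 0.00 over all tested probes. For miR-26a minus sponge it was 0.03, beside 0.02, with -0.0021 for experiment 1 and 0.047 for experiment 2, and it turned negative under 75th percentile scaling (-0.025).

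The intervals bound how much the chain could have changed. The 95% interval of the change lay within 1.5-fold in either direction for 123 of the 127 probes for miR-26a against control, for 124 for sponge against control, and for 121 for miR-26a against sponge. Over all tested probes those counts were 17419, 18686 and 16614 of 20168.

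**Figure D1:**
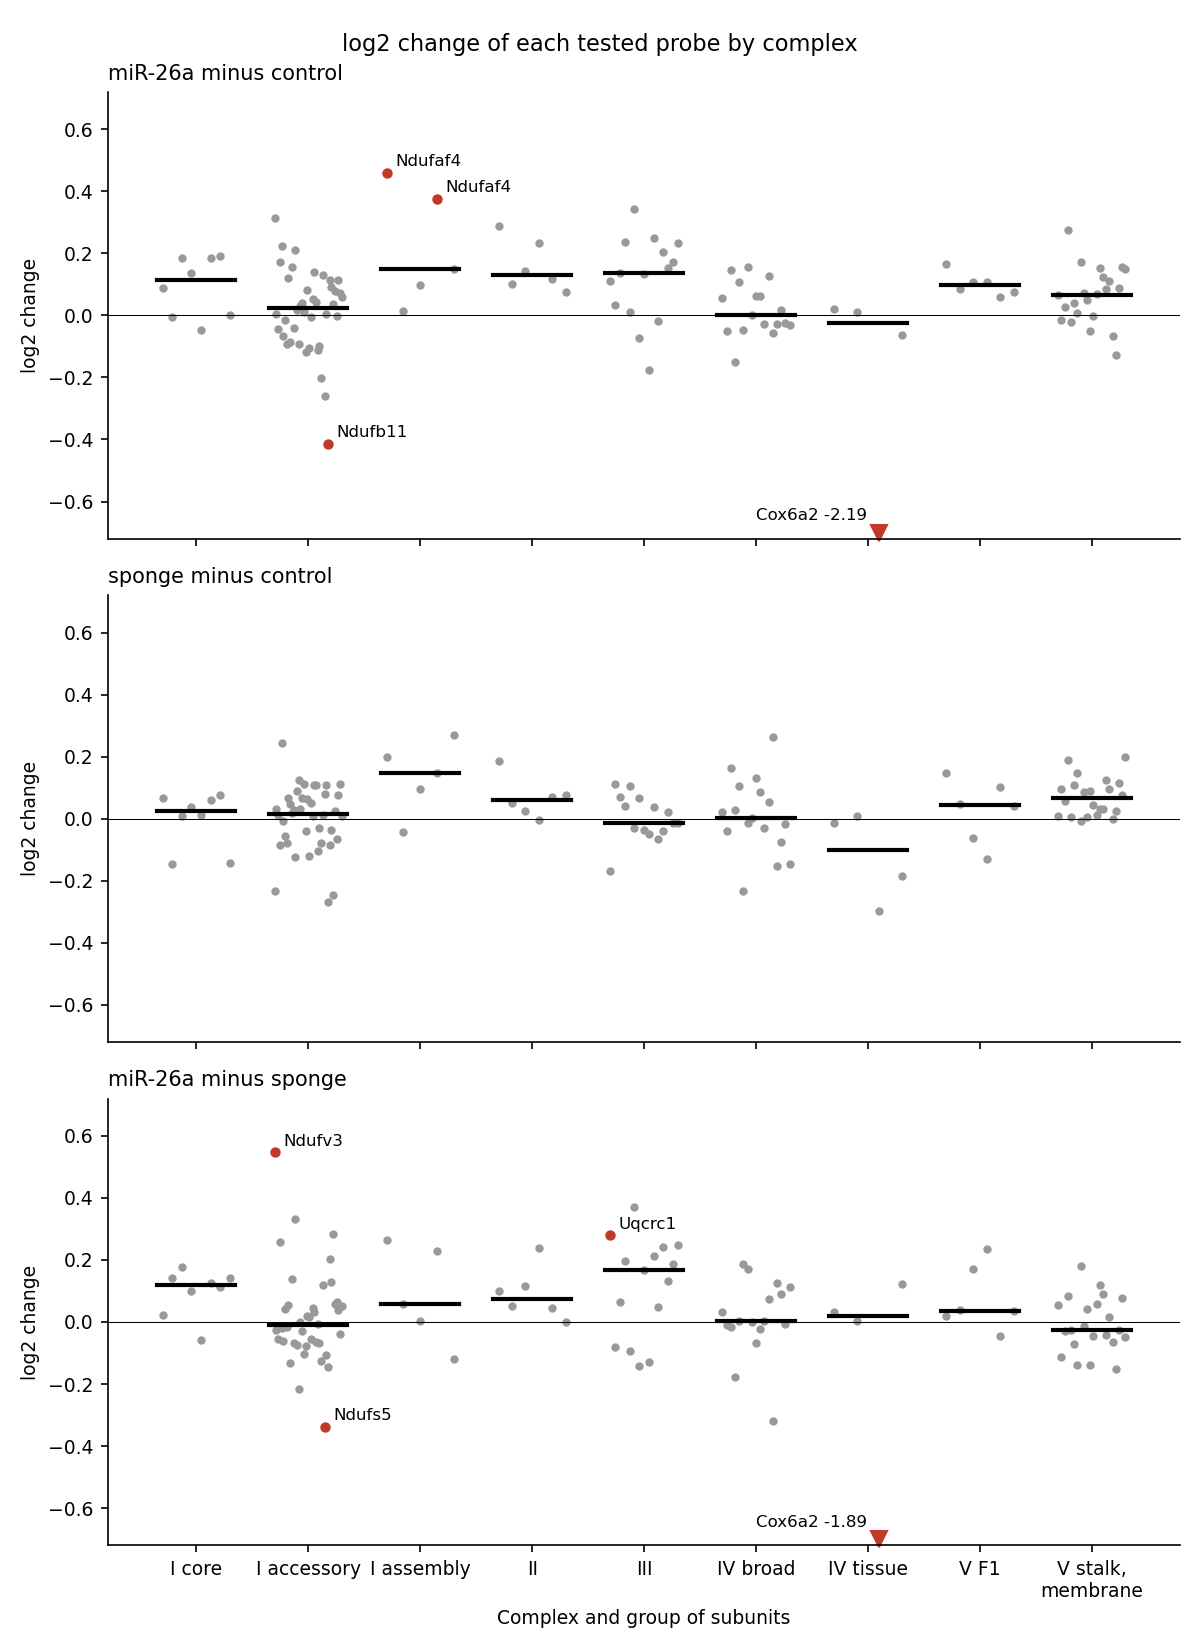
Log2 change of each tested probe (y axis) by subunit group (x axis) for the 3 comparisons, with probes that passed limma in red, the others in grey, and bars at the group medians. Most probes lie close to 0 in each complex, and Cox6a2, drawn as a triangle at the lower edge with its value, lies far below the axis in the panels for miR-26a against control (-2.19) and against sponge (-1.89).

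The plot of changes by complex shows the 5 complexes side by side. For miR-26a minus control the median log2 change was 0.03 over the 48 tested probes of complex I, 0.13 over the 6 of complex II, 0.14 over the 15 of complex III, 0.00 over the 21 of complex IV and 0.07 over the 28 of complex V. The medians of complexes I, II, III and V stayed above 0 under the 16 alternative settings, while that of complex IV dropped below 0 with 75th percentile scaling and with the authors' values. For sponge minus control the medians were 0.02, 0.06, -0.01, -0.01 and 0.05 in the same order, and those of complexes III and IV changed sign with the setting. For miR-26a minus sponge they were 0.02, 0.08, 0.17, 0.00 and 0.00, and those of complexes I, IV and V changed sign with the setting. Whether the complexes differ from each other was not tested.

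Complex I takes electrons from NADH through a flavin and a chain of iron-sulfur clusters. Most of its nuclear genes encode accessory subunits, which surround the part that carries these groups, and the 3 accessory probes that passed belong to Ndufb11, Ndufv3 and Ndufs5.

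Ndufb11 encodes an accessory subunit of the membrane arm. Its probe A_55_P2073582 read 9.14 and 9.27 log2 in control 1 and 2, 8.70 and 8.89 in miR-26a 1 and 2, and 8.82 and 9.05 in sponge 1 and 2. Both miR-26a arrays lay below both controls, and the sponge arrays lay between, overlapping the miR-26a arrays but not the controls. The signal fell by 0.41 on the log2 scale with miR-26a (1.33-fold, SE 0.07, limma adjusted p 0.0253). For sponge minus control the change was -0.27 (adjusted p 0.227), and for miR-26a minus sponge -0.14 (adjusted p 0.204). The other 2 Ndufb11 probes, which overlap each other elsewhere in the gene, changed by -0.11 and -0.10 with miR-26a and did not pass (adjusted p 0.347 and 0.419). The call on A_55_P2073582 rested on all 6 arrays. With control 1 left out the adjusted p was 0.215, with control 2 it was 0.151, with miR-26a 1 or 2 it was 0.0656 or 0.0688, and with either sponge array 0.0527. With the 3 probes averaged the change was -0.21 (adjusted p 0.0961).

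Ndufv3 encodes a small accessory subunit that sits by the flavin end. Its probe A_51_P140211 read 9.38 and 9.40 in control 1 and 2, 9.62 and 9.79 in miR-26a 1 and 2, and 9.07 and 9.23 in sponge 1 and 2. The 3 groups did not overlap, with miR-26a highest and sponge lowest. The signal was higher with miR-26a than with sponge by 0.55 (1.46-fold, SE 0.07, adjusted p 0.011). Against control neither side passed: miR-26a was higher by 0.31 (adjusted p 0.0577), and sponge changed by -0.23 (adjusted p 0.254). The call ended with sponge 1 left out (adjusted p 0.0836) or sponge 2 left out (adjusted p 0.068). The other 2 probes of the gene changed by 0.04 and -0.13 between miR-26a and sponge and did not pass (adjusted p 0.717 and 0.377). With the 3 averaged the difference was 0.15 (adjusted p 0.168). The call was thus seen on A_51_P140211 only, and why the probes differ was not tested.

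Ndufs5, an accessory subunit of the intermembrane side, is represented by 1 probe. It read 15.30 and 15.16 in control 1 and 2, 15.03 and 14.91 in miR-26a 1 and 2, and 15.39 and 15.22 in sponge 1 and 2. Both miR-26a arrays were below the 4 others, and control and sponge overlapped. The signal was lower with miR-26a than with sponge by -0.34 (1.26-fold, SE 0.07, adjusted p 0.0271). For miR-26a minus control it was -0.26 (adjusted p 0.069), the largest drop among the brightest probes of complex I, and it passed with array weights (adjusted p 0.0492). For sponge minus control it was 0.08 (adjusted p 0.586). The call against sponge ended when any of the 6 arrays was left out. The adjusted p was then 0.0728 without either control array, 0.0954 or 0.0718 without miR-26a 1 or 2, and 0.127 or 0.0953 without sponge 1 or 2.

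The largest rise with miR-26a among the brightest probes of complex I was that of Ndufab1, the acyl carrier protein, at 0.22 (adjusted p 0.0943). Ndufab1 was also highest for sponge minus control, at 0.24 (adjusted p 0.229). Ndufb5, a membrane arm subunit, had the largest drop for sponge minus control, at -0.25 (adjusted p 0.359), and the largest rise for miR-26a minus sponge, at 0.28 (adjusted p 0.148). Both Ndufb5 values rested on sponge 1, without which they were -0.054 and 0.090. None of these changes passed.

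The complex I assembly factors are not part of the finished enzyme. Of them Ndufaf4, which acts early in assembly of the complex, rose with miR-26a on both of its probes, which do not overlap. Probe A_51_P162098 read 11.42 and 11.18 in control 1 and 2, 11.91 and 11.61 in miR-26a 1 and 2, and 11.63 and 11.36 in sponge 1 and 2. Probe A_55_P1990648 read 10.76 and 10.50 in control 1 and 2, 11.15 and 10.86 in miR-26a 1 and 2, and 10.96 and 10.60 in sponge 1 and 2. On both probes each miR-26a array was above both controls, and within each experiment the sponge array lay between. The first probe rose by 0.46 (1.38-fold, SE 0.07, adjusted p 0.0176), by 0.49 in experiment 1 and 0.43 in experiment 2. The second rose by 0.38 (1.30-fold, SE 0.07, adjusted p 0.0311).

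For sponge minus control the Ndufaf4 probes changed by 0.20 and 0.15 (adjusted p 0.27 and 0.36), and for miR-26a minus sponge by 0.26 and 0.23 (adjusted p 0.0512 and 0.0775), none of which passed. On A_51_P162098 the call against control ended without control 1 (adjusted p 0.169), control 2 (0.138) or miR-26a 1 (0.0503). On A_55_P1990648 it ended without any of the 6 arrays, with adjusted p from 0.0573 to 0.24. The other 3 assembly factors changed by 0.15 (Ndufaf1), 0.10 (Ndufaf2) and 0.02 (Ndufaf3) with miR-26a, and none passed.

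Complex II, succinate dehydrogenase, is encoded entirely in the nucleus. In limma 0 of its 6 probes passed in any comparison. At an unadjusted p under 0.05 there were 2 higher for miR-26a against control, beside 14.3% of all tested probes. There was 1 higher for sponge against control, beside 7.38%, and 1 higher for miR-26a against sponge, beside 18.7%. The 6 probes, from 4 genes, were above 0 for miR-26a minus control in both experiments, where 52.7% of all tested probes were above 0 on average. Sdha, the flavoprotein, read 14.02 and 14.00 in control 1 and 2, 14.34 and 14.15 in miR-26a 1 and 2, and 14.05 and 13.96 in sponge 1 and 2. Its miR-26a arrays were above the 4 others, by 0.23 over control (adjusted p 0.116) and 0.24 over sponge (adjusted p 0.0852). Sdhd, a membrane anchor, read 14.45 and 14.30 in control 1 and 2, 14.68 and 14.64 in miR-26a 1 and 2, and 14.64 and 14.49 in sponge 1 and 2. Its miR-26a and sponge arrays were above the controls, by 0.29 (SE 0.07, adjusted p 0.0632) and 0.19 (adjusted p 0.295). The Sdhd change with miR-26a passed with normexp background correction (adjusted p 0.0335) and with array weights (adjusted p 0.0443). The iron-sulfur subunit Sdhb changed by 0.07 with miR-26a (adjusted p 0.671), and the other anchor Sdhc by 0.14 (adjusted p 0.307). Both values moved with single arrays left out, to 0.0054 without miR-26a 2 and 0.14 without miR-26a 1 for Sdhb, and to 0.20 and 0.084 for Sdhc.

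Complex III had a median with miR-26a close to that of complex II, and likewise no probe that passed against control. In limma 0 of 15 probes passed, with 1 lower and 6 higher at an unadjusted p under 0.05 (beside 13% and 14.3% of all tested probes). Above 0 were 12 of the 15, beside 52.7% of all tested probes. Uqcr11, a small subunit, had the largest rise of the brightest probes (0.24, adjusted p 0.0925), and Uqcrh, the hinge protein, the largest drop (-0.07, adjusted p 0.555), which was -0.028 without control 2 and -0.12 without control 1. For sponge minus control the extremes were Uqcrc2 (0.11, adjusted p 0.451) and Uqcrc1 (-0.17, adjusted p 0.305), both core proteins. Between miR-26a and sponge 1 of 15 passed, beside 16.8% of all tested probes. At an unadjusted p under 0.05 there were 0 lower and 8 higher, beside 15.9% and 18.7%.

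The complex III probe that passed was that of Uqcrc1. It read 13.31 and 13.26 in control 1 and 2, 13.45 and 13.34 in miR-26a 1 and 2, and 13.14 and 13.09 in sponge 1 and 2. The groups did not overlap, with miR-26a highest and sponge lowest, but they lay close together. The difference between miR-26a and sponge was 0.28 (1.21-fold, SE 0.07, adjusted p 0.0437), and miR-26a minus control was 0.11 (adjusted p 0.348). The call ended when any of the 6 arrays was left out. The adjusted p was 0.106 without either control array, 0.163 or 0.103 without miR-26a 1 or 2, and 0.164 or 0.126 without sponge 1 or 2. It also ended with 75th percentile scaling (adjusted p 0.107).

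Complex IV held the largest change in the chain. Cox6a2 encodes the form of subunit VIa that is typical of heart and skeletal muscle, and its probe A_51_P509997 lies on chromosome 7 at chr7:135349160-135349219 (mm9, minus strand). It read 10.15 and 10.93 in control 1 and 2, 7.88 and 8.84 in miR-26a 1 and 2, and 9.58 and 10.91 in sponge 1 and 2. As signal before normalization, the values were 1143 and 1854 in control, 232 and 446 in miR-26a, and 764 and 2058 in sponge. Both miR-26a arrays lay well below the 4 others, control and sponge overlapped, and in each group experiment 2 gave the higher value.

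Cox6a2 fell by 2.19 on the log2 scale with miR-26a (4.55-fold, SE 0.14, 95% interval -2.53 to -1.84, limma adjusted p 0.00337). The drop was -2.27 in experiment 1 and -2.10 in experiment 2. Against sponge it was lower by -1.89 (3.70-fold, SE 0.14, adjusted p 0.0029), with -1.70 and -2.08 in the 2 experiments. Sponge minus control was -0.30 (adjusted p 0.357), with -0.57 and -0.02. Both calls held with each of the 6 arrays left out, with adjusted p up to 0.0374 against control and 0.0366 against sponge. Without the experiment block the adjusted p rose to 0.122 against control and 0.113 against sponge, since a fit without it counts the difference between experiments as noise. In that fit the calls of Ndufaf4 (adjusted p 0.227 and 0.344), Ndufb11 (0.171), Ndufs5 (0.13) and Uqcrc1 (0.119) also ended, and that of Ndufv3 was kept (0.0436).

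**Figure D2:**
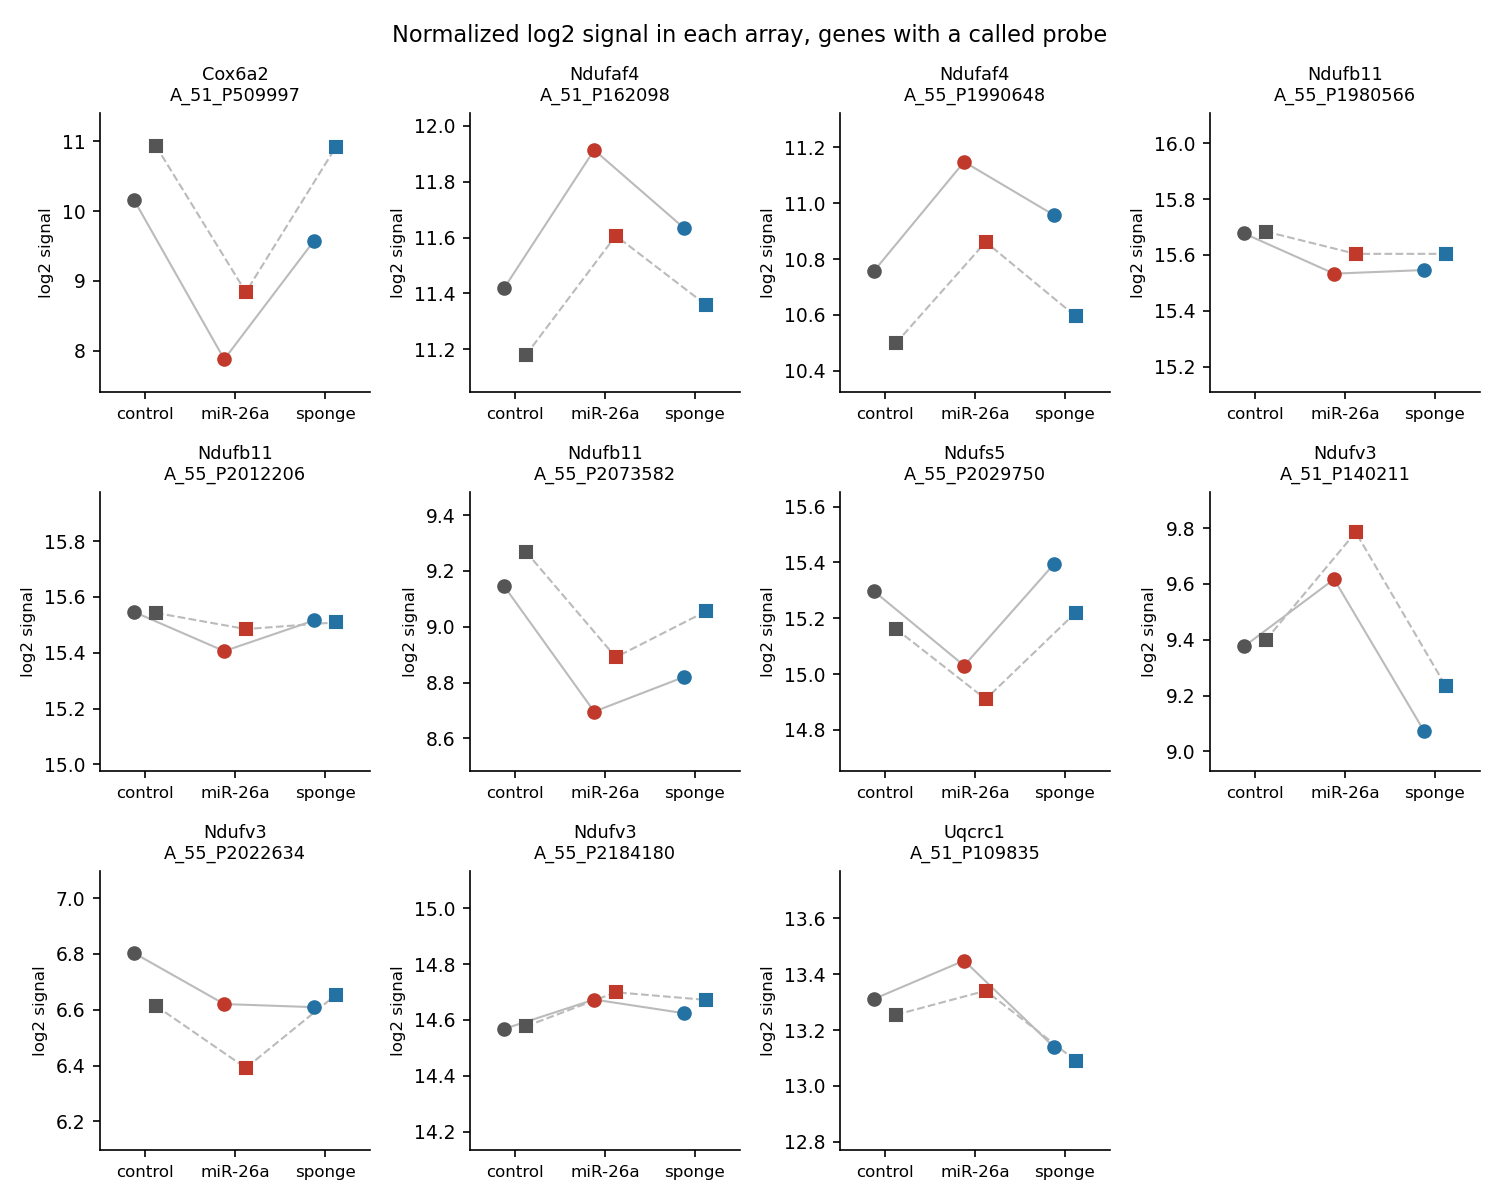
Log2 signal (y axis) on the 6 arrays by group (x axis) for the 11 probes of the 6 genes with a probe that passed limma, with circles and solid lines for experiment 1 and squares and dashed lines for experiment 2. Each panel spans 1 log2 unit except that of Cox6a2, which spans 4, and the Cox6a2 drop in miR-26a is seen in both experiments.

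The broadly expressed partner of Cox6a2 did not fall. Cox6a1 changed by 0.15 with miR-26a (adjusted p 0.256) and by 0.16 with sponge (adjusted p 0.336), the largest rise of the brightest complex IV probes for sponge. The Cox6a1 value with miR-26a was 0.092 without miR-26a 2 and 0.20 without miR-26a 1. The muscle isoform Cox7a1 changed by 0.02 with miR-26a and -0.01 with sponge, so the drop was not seen for the other tested muscle form. Cox4i2, typical of lung, changed by -0.06 with miR-26a and -0.19 with sponge, and the testis form Cox6b2 by 0.01 and 0.01. None of these 4 passed. The miR-26a values of Cox7a1, Cox4i2 and Cox6b2 changed sign without control 2 or miR-26a 2, with a range of -0.42 to 0.29 for Cox4i2. The sponge value of Cox4i2 changed sign without control 2, that of Cox7a1 without control 1, and that of Cox6b2 without control 2 or sponge 1. The sponge values of Cox7a1 and Cox6b2 also changed sign with 75th percentile scaling. Cox4i2 differed by 0.12 between miR-26a and sponge, and passed without miR-26a 2 (0.48, adjusted p 0.0314). It turned negative without sponge 1 or without miR-26a 1 (-0.23).

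Over the 17 probes of the broad complex IV isoforms the medians were 0.00 for the 3 comparisons, and in limma 0 passed in any. At an unadjusted p under 0.05 the counts were 0 for miR-26a against control, 1 lower for sponge against control, and 1 lower and 1 higher for miR-26a against sponge. Cox4i1 changed by -0.05, Cox7a2 by 0.00, Cox7b by 0.06 and Cox6b1 by -0.05 with miR-26a. Cox7a2l, which joins complexes III and IV into larger assemblies, changed by -0.02. Of these 5, the values of all but Cox7b changed sign when some arrays were left out, and that of Cox7a2 also with 75th percentile scaling. That of Cox7b was 0.0045 without control 1 and 0.11 without control 2. Cox8a had the largest rise in complex IV with miR-26a, at 0.16 (adjusted p 0.201), and Cox6b1 the largest for miR-26a minus sponge, at 0.19 (adjusted p 0.159). The latter was 0.10 without sponge 1, below the lowest value of Cox8a with an array left out (0.16), and 0.27 without sponge 2.

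Ndufa4, once counted with complex I and found with complex IV, read 14.78 and 14.72 in control 1 and 2, 14.67 and 14.51 in miR-26a 1 and 2, and 15.25 and 14.76 in sponge 1 and 2. Sponge 1 stood above the 5 other arrays. Neither the change with miR-26a (-0.16, adjusted p 0.442) nor that with sponge (0.25, adjusted p 0.359) passed. The former was -0.029 without control 2, and the latter 0.058 without sponge 1. The difference between miR-26a and sponge was -0.41 (adjusted p 0.0674), with -0.22 without sponge 1 and -0.60 without sponge 2. It passed with normexp background correction (adjusted p 0.0253).

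Complex V, ATP synthase, had no probe that passed in limma in any comparison. Of its 28 probes 0 lower and 1 higher had an unadjusted p under 0.05 for miR-26a against control, 0 and 2 for sponge, and 0 and 1 for miR-26a against sponge. Over all tested probes the shares higher were 14.3%, 7.38% and 18.7%, and the shares lower 13%, 8.72% and 15.9%. For miR-26a minus control 22 of 28 were above 0, beside 52.7% of all tested probes, and for sponge minus control 24, beside 51.4%. The 6 probes of the catalytic F1 part (Atp5a1, Atp5b, Atp5c1, Atp5d and Atp5e) had a median of 0.10 with miR-26a, and the 6 were above 0. The 22 probes of the stalk and membrane part had a median of 0.07. The 3 genes for the ring subunit c differ in the presequence that is cut off on import and encode the same mature protein. With miR-26a they changed by 0.27 (Atp5g1, adjusted p 0.0637), 0.07 (Atp5g2) and 0.17 (Atp5g3). The last was 0.045 without control 1 and 0.30 without control 2, and that of Atp5g2 was 0.11 and 0.029. Atp5g1 read 15.24 and 15.03 in control 1 and 2, 15.54 and 15.27 in miR-26a 1 and 2, and 15.42 and 15.23 in sponge 1 and 2. In each experiment both treated arrays were above the control. It was the largest rise of the brightest complex V probes in miR-26a and in sponge (0.19, adjusted p 0.282), and against control it passed for miR-26a with normexp background correction (adjusted p 0.0336) and array weights (adjusted p 0.0445). The largest drops of these probes were Atp5h with miR-26a (-0.07, adjusted p 0.647) and Atp5d with sponge (-0.13, adjusted p 0.436). Atp5h turned positive without miR-26a 1 (0.02), and the Atp5d value was -0.058 without sponge 1 and -0.20 without sponge 2.

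**Figure D3:**
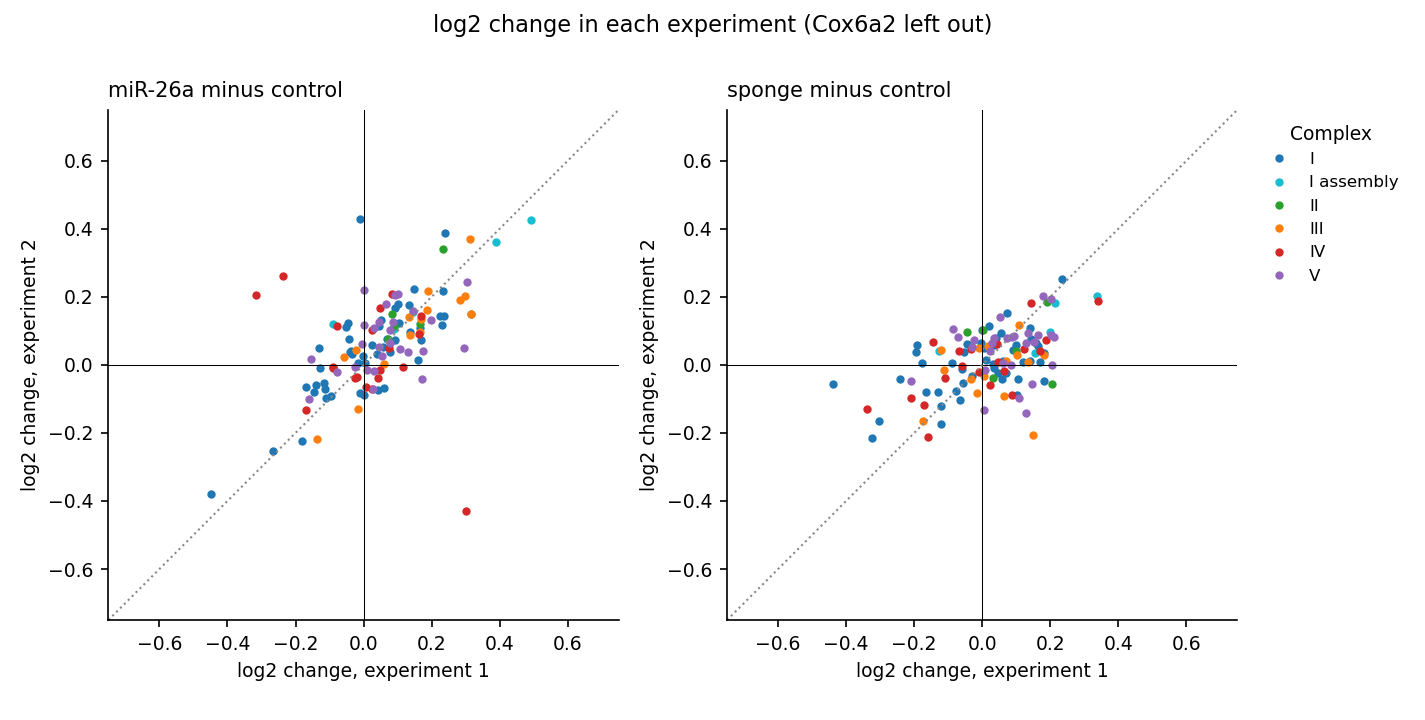
Log2 change of each tested probe in experiment 1 (x axis) and experiment 2 (y axis) for miR-26a minus control and sponge minus control, coloured by complex, with a dotted line where the 2 experiments are equal and with Cox6a2, Ndufa4 and the 3 genes that are not subunits left out. The points gather near 0, with 70 of the 127 tested probes above 0 in both experiments for miR-26a and 57 for sponge.

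Probes of the same gene are not separate genes. Of the 86 tested genes 29 had several tested probes, 70 probes together, and in 11 of these genes probes overlap in position. Within a gene, probes differed in the sign of the change for 7 genes with miR-26a against control, 10 with sponge and 9 for miR-26a against sponge. Taking the brightest probe of each gene left 1 gene lower (Cox6a2) and 1 higher (Ndufaf4) for miR-26a against control. It left 0 for sponge, and 2 lower (Cox6a2 and Ndufs5) and 1 higher (Uqcrc1) for miR-26a against sponge. The median over the 86 genes with miR-26a was then 0.05, with 59 above 0.

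By the positions given on the array, the tested probes of the respiratory chain lie on 20 chromosomes. These positions put the Atp5k probes on chromosome Y, while the promoter entry of Atp5k lies on chromosome 5. Neighbours were looked up, after the values were seen, by order of protein-coding genes in a RefSeq gene table. For Cox6a2 the 6 nearest were Itgam, Itgax, Itgad, 9130023H24Rik, Armc5 and Tgfb1i1. Only Itgam and Armc5 had tested probes. Itgam fell with miR-26a on probe A_55_P1977929 (-0.82, adjusted p 0.0072), while its other tested probe A_55_P1977934 changed by 0.06, and Armc5 changed by 0.04. The Itgam call ended without control 1 (adjusted p 0.0766) or control 2 (0.0674). Itgam is also a myeloid marker and the most abundant of the 4 listed. The summed signal of the myeloid list was 3617 and 4793 in control 1 and 2, 3876 and 4548 in miR-26a 1 and 2, and 3042 and 4529 in sponge 1 and 2. Of the 4 tested myeloid probes 1 fell, beside 5.14% of all tested probes, and the part of these markers in the Cox6a2 result was not tested. Neighbours that passed for miR-26a against control were also found near other genes with a called probe. Of tested neighbour probes 1 of 3 passed for Cox6a2, 1 of 3 for Ndufaf4, 1 of 5 for Ndufb11 and 0 of 4 for Ndufs5. For Ndufv3 it was 2 of 6 and for Uqcrc1 2 of 5, beside 9.64% of all tested probes.

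To show where the array itself reads a match to the miR-26 seed, the 60-base probe sequences were searched for TACTTGA (the complement of bases 2 to 8) and ACTTGAA (the complement of bases 1 to 7). These words can overlap. Either word was found in 199 of the 20168 tested probes (0.987%), and 33 of the 199 (16.6%) fell with miR-26a, beside 5.14% of tested probes. Among the respiratory chain probes 4 of 127 held a word. They are shown as 30-base stretches from the array files, with the word in capitals and, where a single span is given, mm9 coordinates. The stretch of Atp5h lies at chr11:115277118-115277147 (minus strand), that of Uqcrfs1 at chr13:30632363-30632392 (minus strand) and that of Atp5s at chr12:70842700-70842729 (plus strand).
Cox5a: actgctattgcTACTTGAttgaaatagttg
Atp5h: atgACTTGAAtgagatcttcccagaaacca
Uqcrfs1: gattcagtcatagACTTGAAaggtgcaatg
Atp5s: aggcttagtcaACTTGAAaatttacgaaaa

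None of these 4 probes changed. Cox5a, which encodes a broadly expressed complex IV subunit, changed by -0.15 with miR-26a (adjusted p 0.222) and 0.03 with sponge. The Atp5h probe changed by -0.13 (adjusted p 0.295) and 0.02. Uqcrfs1, the Rieske iron-sulfur protein, changed by 0.14 (adjusted p 0.295) and 0.07, and Atp5s by 0.05 (adjusted p 0.786) and -0.05. No called respiratory chain probe held either word, which says only that these letters are absent from those 60 bases.

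Promoters of respiratory genes are known for sites of NRF1, of ETS factors such as GABP, and of YY1. Promoter entries (RefSeq, GRCm38.p6, 250 bases before to 50 after the start) were found for 74 of the 90 genes. On both strands, the palindrome bound by NRF1 (GCGCA followed directly by TGCGC) was present for 6 of the 74 (8.11%), and for 290 of 27025 genes in the table (1.07%). CCGGAAG, the ETS core, was present for 17 (23%) against 2683 (9.93%), and AAGATGGCG, bound by YY1, for 8 (10.8%) against 443 (1.64%). Both Ndufaf4, which rose with miR-26a, and Uqcrc1, which differed between miR-26a and sponge, hold the NRF1 word. Ndufb11, Ndufs5 and Ndufv3, which also have a called probe and an entry, do not. Cox6a2 is among the 16 genes with no entry. The stretches around the NRF1 word, in capitals, are shown for Ndufaf4 (chr4:24897960-24897989, plus strand) and, for comparison, for 2 subunit genes that did not change, Cox6a1 (chr5:115349101-115349130, minus strand) and Atp5k (chr5:108434430-108434459, minus strand).
Ndufaf4: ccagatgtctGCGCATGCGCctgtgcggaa
Cox6a1: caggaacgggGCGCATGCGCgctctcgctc
Atp5k: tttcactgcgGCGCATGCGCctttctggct

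With miR-26a Cox6a1 changed by 0.15 (adjusted p 0.256) and Atp5k by 0.11 (adjusted p 0.442). The words are a description of the promoters, and whether they have a part in any change was not tested.

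The part of the chain that is encoded by mitochondrial DNA was read by 12 probes, with ND3 absent from the array. For miR-26a against control 0 of 12 passed in limma, with 0 lower and 2 higher at an unadjusted p under 0.05. For sponge against control 0 passed, with 1 lower and 0 higher. For miR-26a against sponge 2 of 12 were higher, where 8.28% of all tested probes were, and 16.8% passed in either direction. They were ATP6, a membrane subunit of complex V, by 0.47 (adjusted p 0.0217), and ND6, of complex I, by 0.33 (adjusted p 0.0371). For that comparison the 12 probes were above 0, beside 53.5% of all tested probes. The median was 0.21, with 0.42 for experiment 1 and 0.04 for experiment 2. For sponge minus control 11 of 12 were below 0, 9 of them in both experiments. That median was -0.14 (-0.22 and -0.03 in experiments 1 and 2) and stayed below 0 in 15 settings, from -0.27 to -0.015. For miR-26a minus control 11 of 12 were above 0, 4 of them in both experiments, with a median of 0.06.

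Both calls depended on single arrays. Without sponge 1 the adjusted p was 0.12 for ATP6 and 0.126 for ND6. ATP6 passed in 1 of the 6 fits with an array left out (without miR-26a 2) and ND6 in 0. The median of the list for miR-26a minus control changed sign without miR-26a 1. Relative to each probe's mean over the 6 arrays, the median of the mitochondrially encoded probes was -0.12 and 0.12 in control 1 and 2, 0.07 and 0.09 in miR-26a 1 and 2, and -0.35 and 0.09 in sponge 1 and 2. The lowest array was sponge 1. The nuclear respiratory chain probes had medians of 0.00 and -0.07, 0.06 and 0.01, and 0.05 and -0.04 on the same arrays, so they did not share the drop in sponge 1.

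**Figure D4:**
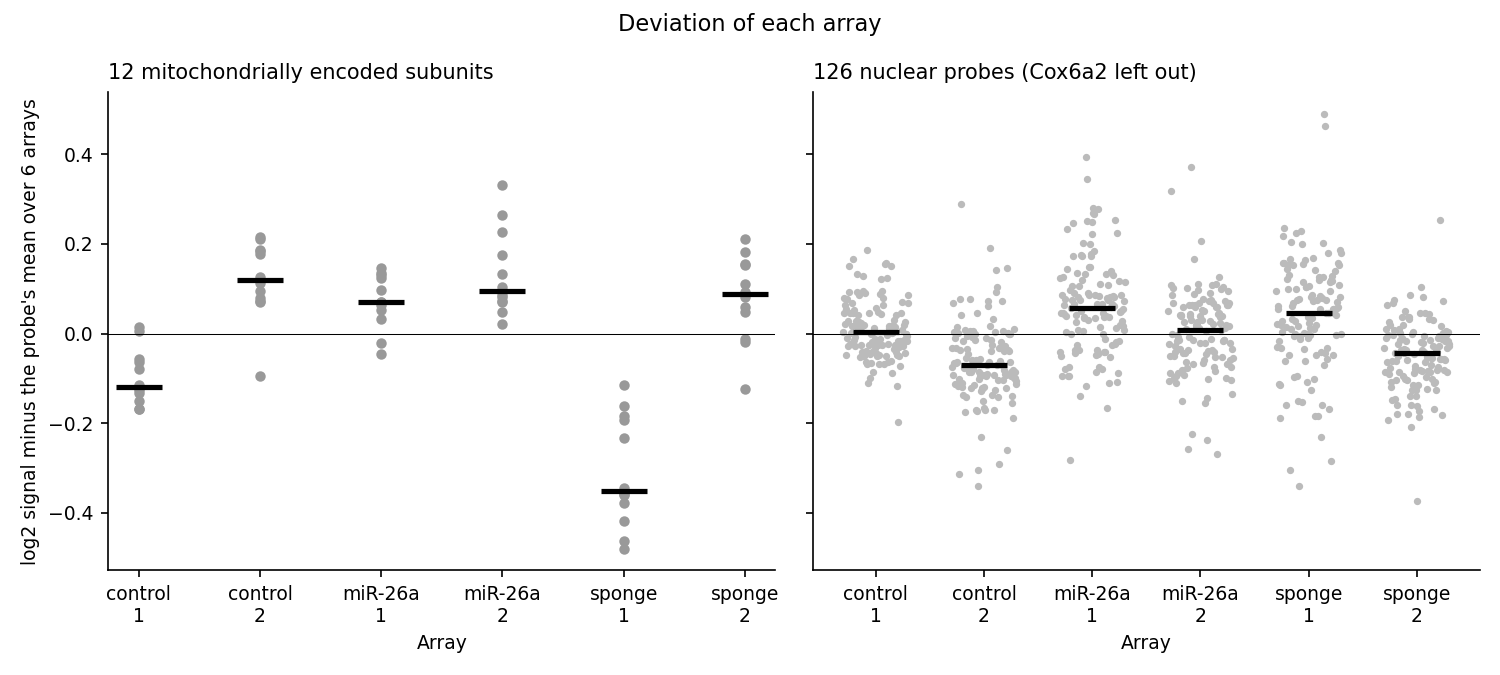
Log2 signal minus each probe's mean over the 6 arrays (y axis) on each array (x axis) for the 12 mitochondrially encoded probes (left) and the nuclear respiratory chain probes without Cox6a2 (right), with bars at the medians. The mitochondrially encoded probes are low in sponge 1 (median -0.35), and the nuclear probes are not (median 0.05).

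Partners of the complexes that the name rule misses stayed within the same range. The list of cytochrome c1, cytochrome c, 3 further ATP synthase proteins (Usmg5, 2010107E04Rik and Atpif1) and the phosphate and ATP carriers (Slc25a3, Slc25a4 and Slc25a5) had 10 tested probes. In limma 0 of 10 passed in any comparison. At an unadjusted p under 0.05 there were 3 higher for miR-26a against control, 3 higher for sponge against control, and 1 lower for miR-26a against sponge. Cyc1, the cytochrome c1 of complex III, changed by 0.30 with miR-26a (adjusted p 0.0686). For sponge minus control 10 of 10 probes were above 0 (median 0.12), beside 51.4% of all tested probes. For miR-26a minus control 7 of 10 were above 0 (median 0.07), beside 52.7%, and for miR-26a minus sponge 4 of 10 (median -0.03), beside 53.5%.

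Assembly factors of complexes II to V and enzymes of coenzyme Q synthesis had 37 tested probes. Of these 2 fell and 2 rose with miR-26a against control, where 5.14% and 4.5% of all tested probes did, 0 passed for sponge (1 lower and 5 higher at an unadjusted p under 0.05), and 5 were lower and 4 higher for miR-26a against sponge, where 8.49% and 8.28% of all tested probes were. Lyrm7, a complex III assembly factor, rose by 0.72 with miR-26a (adjusted p 0.00826), and Pdss1, which makes the coenzyme Q side chain, by 0.31 (adjusted p 0.0451). Pdss2, the partner of Pdss1, fell on both probes (-0.60 and -0.61, adjusted p 0.0108 and 0.0196).

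Lyrm7 and Pdss2 also differed between miR-26a and sponge, by 0.50 for Lyrm7 and by -0.91 and -0.74 for Pdss2. In that comparison Cox10 (0.53) and Sco2 (0.43), both complex IV assembly factors, and Coq2 (0.32), a coenzyme Q enzyme, were higher with miR-26a. Lrpprc (-0.47), which keeps mitochondrial mRNA stable, and the complex IV assembly factors Sco1 (-0.32) and Surf1 (-0.36) were lower. The Cox10 value was 0.31 without sponge 2 and 0.75 without sponge 1. Beyond the Ndufaf genes, 1 of 6 probes for other complex I assembly factors passed (9.64% of all tested probes did), with Nubpl, an iron-sulfur carrier, up by 0.38 with miR-26a (adjusted p 0.0281). For sponge 0 of these 6 passed and 1 was higher at an unadjusted p under 0.05, and for miR-26a against sponge the counts were the same.

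Lists of other mitochondrial functions had medians above 0 with miR-26a as well, and those of the tricarboxylic acid cycle, ribosome and import lists stayed above 0 in the 15 settings tried on them. In the tricarboxylic acid cycle 1 of 18 probes passed for miR-26a against control (beside 9.64% of all tested probes), Suclg2 (0.50, adjusted p 0.0451), and the median was 0.10. In limma 0 passed for the other 2 comparisons, where 0 lower and 0 higher, then 1 lower and 5 higher, had an unadjusted p under 0.05. Of 103 probes for mitochondrial ribosomal proteins 2 rose with miR-26a (Mrpl36 by 0.31 and Mrpl50 by 0.38) and 0 fell, where 4.5% and 5.14% of all tested probes did. The median was 0.11 and 82 were above 0, against 88 of 127 respiratory chain probes. For sponge 0 passed, with 1 lower and 9 higher at an unadjusted p under 0.05. Between miR-26a and sponge 3 were higher (Mrpl28 by 0.30, Mrpl4 by 0.35 and Mrpl44 by 0.27), beside 8.28% of all tested probes.

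Of 32 probes for mitochondrial import 6 rose with miR-26a and 0 fell, where 4.5% and 5.14% of all tested probes did, with a median of 0.15. They were Timm9 (0.59), Timm8a1 (0.44), Tomm40 (0.31), Tomm40l (0.32) and both probes of Tomm5 (0.35 and 0.41). For sponge 0 passed, with 1 lower and 5 higher at an unadjusted p under 0.05, and between miR-26a and sponge 2 were higher, Timm9 (0.62) and Tomm40 (0.43), beside 8.28% of all tested probes. Of 19 probes for regulators of mitochondrial gene expression 0 passed for miR-26a against control (1 lower and 2 higher at an unadjusted p under 0.05) and 0 for sponge (2 lower and 1 higher). Between miR-26a and sponge 1 Gabpb1 probe was lower (-0.53, adjusted p 0.0176) and Gabpb2 higher (0.34, adjusted p 0.0478), beside 8.49% and 8.28% of all tested probes. Ppargc1a, a coactivator of respiratory genes, was not well above background on any array, and Nrf1, Gabpa, Tfam and Yy1 were tested and did not pass. The median of the regulators for miR-26a against control was 0.02 and turned negative without miR-26a 2.

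With 1 array left out, calls were lost over the whole array as well as on these pathway lists. For miR-26a against control 1036 lower and 908 higher among all tested probes became 75 and 29 without control 1 and 98 and 35 without control 2. For miR-26a against sponge 1712 and 1669 became 292 and 140 without sponge 1 and 285 and 125 without sponge 2. Of the 14 list calls for miR-26a against control 0 were kept in each of the 6 fits, and that of Lyrm7 ended without control 1 (adjusted p 0.0819) or control 2 (0.0811). Of the 18 for miR-26a against sponge 1 was kept in each, that of Pdss2 on probe A_55_P2022444. Without the experiment block 1 of the 14 was kept (Lyrm7) and 2 of the 18 (Pdss2 and Timm9). Cox6a2 was the only respiratory chain gene whose calls were kept in each of the 6 fits.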

How the data were processed

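Total RNA of 6 samples was labelled with Cy3 and read on Agilent 60-base arrays. Per the file headers, Agilent Feature Extraction 10.7.3.1 made the scanner files, whose values are background-subtracted fluorescence intensity. The table the authors deposited holds quantile-normalized intensity on a linear scale. From the scanner files, signals were quantile-normalized, taken to log2 and averaged over the unflagged spots of a probe (R 4.3.3, Python 3.11.15, figures with matplotlib 3.10.9). Probes well above background on at least 1 array, with signal above 50 on at least 4 of 6 arrays, were tested (20168 of 55681).

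All 3 groups were fitted together in limma 3.58.1 (lmFit and eBayes) with experiment as a block, 2 residual degrees of freedom and a prior of 3.56, and p-values were adjusted by Benjamini-Hochberg over all tested probes, with 0.05 as the threshold. The fit was tested on simulated data. The block follows the methods of the study, which normalize to the control of each experiment. As a check of the pairing, the deviations of arrays with the same replicate number correlated across 20168 probes with r 0.379 (control and miR-26a), 0.588 (control and sponge) and 0.454 (miR-26a and sponge), over probes that are not independent. The replicate number is also the slide row, so experiment and slide row cannot be told apart. Each group also lies in a slide column of its own, so group and slide column cannot be told apart. The p-values measure the spread between 2 experiments of 1 line.

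Named genes were those that passed, the largest rise and fall of the brightest probe in each complex, the Sdh genes, the isoform families, and genes of the pathway lists that passed. The lists were partners outside the name rule, mitochondrially encoded subunits, assembly of complexes II to V and coenzyme Q, other complex I assembly, tricarboxylic acid cycle, regulators, mitochondrial ribosome, mitochondrial import, and cell type markers. Members and lists were chosen with earlier results of these data known. The alternatives were no block, 75th percentile scaling, normexp background correction, the authors' values, 3 other filters, an unpaired test (as a figure legend of the study names), array weights, probes of a gene averaged, and each array left out.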

Additional observations from a re-analysis of the deposited data

How the results depend on the processing

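Under 16 alternative settings no respiratory chain probe that passed changed direction. The calls on the pathway lists were run under 15. The Cox6a2 drop with miR-26a ranged from -2.37 to -1.97 against control and from -2.12 to -1.66 against sponge. Both calls were kept in 13 of the 16 settings and ended without the experiment block (adjusted p 0.122 and 0.113), without a filter (0.232 and 0.171) and in an unpaired test (0.406 and 0.488). Against control, Ndufaf4 kept its calls in 10 settings on A_51_P162098 and 7 on A_55_P1990648, and Ndufb11 in 6. Against sponge, Ndufv3 kept its call in 11, Ndufs5 in 7 and Uqcrc1 in 4. Over 77 named results, 57 values under an alternative no longer passed, 7 newly passed and 1168 stayed on the same side of the threshold. The last count leaves sign aside, and some values that did not pass changed sign.

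The counts of respiratory chain probes that passed moved as follows. For miR-26a against control (2 lower and 2 higher) they were 0 and 0 without the block, without a filter and in the unpaired test, 1 and 1 with probes averaged, 2 and 5 with normexp background correction, and 3 and 5 with array weights. For miR-26a against sponge (2 lower and 2 higher) they were 0 and 1 without the block, 0 and 0 without a filter and in the unpaired test, 3 and 5 with normexp background correction, and 2 and 1 with 75th percentile scaling, with signal above 50 on at least 2 arrays and with array weights. These losses were seen over the whole array too. Of all probes 0 passed in any comparison without a filter (55681 tested) and in the unpaired test. Without the block 238 lower and 73 higher passed for miR-26a against control (from 1036 and 908), and 632 and 365 for miR-26a against sponge (from 1712 and 1669). For sponge against control the counts of respiratory chain probes were 0 and 0 in every setting. Over all probes they were 0 and 2 in the main fit, 26 and 10 with normexp background correction, and 22 and 13 without either miR-26a array. At the thresholds of the study's methods in the unpaired test (p 0.05 and a change of 20 percent lower for miR-26a, p 0.1 and 20 percent higher for sponge), 0 of 127 probes passed, against 689 and 223 of all tested probes.

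With 75th percentile scaling the median change of the list was 0.080 for sponge against control, beside 0.034 over all probes, and -0.025 for miR-26a against sponge, beside 0.0053. The cause was not tested. Of the medians of the 5 complexes in the 3 comparisons, 50 values under an alternative moved beyond the spread between experiments and 190 did not.

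With 1 array left out, the lone array of its group is assumed to vary like the others. The counts then ran from 1 to 1 lower and 0 to 1 higher for miR-26a against control, and from 1 to 2 lower and 0 to 2 higher for miR-26a against sponge. Over all probes the fewest were 75 lower and 29 higher (without control 1), and 285 and 125 (without sponge 2). The list's median ran from 0.046 to 0.084 for miR-26a against control, from 0.014 to 0.050 for sponge against control and from 0.0011 to 0.039 for miR-26a against sponge.

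Signal over background limits what can be said of the 4 isoforms near background on the 6 arrays (Cox7b2, Cox8b, Cox8c and Ndufa4l2), for which no change was detectable. With 2 arrays a group, changes near 0.1 log2 are within the spread of replicates.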
